A study of Mus musculus with 10 samples.

Results

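Resting neutrophils from the bone marrow of wild type mice were profiled on 3 of the 10 microarrays of a series on lipocalin 2, and the order of the gene signals within these 3 arrays is described here. The arrays were picked by their label, unstimulated wild type, replicates 1 to 3. The cells came from tibia and femur of female C57bl/6 mice aged 10 weeks. Red cells were lysed for 5 minutes, and the cells that gathered between 62% and 81% Percoll, a density gradient medium, were used without a sort for a surface marker. The other groups, which entered only checks and 1 alternative, were unstimulated lcn2 knockout cells (3 arrays) and, after 20 minutes in 10 micromolar fMLP, a formylated peptide that attracts neutrophils, at 37 degrees, wild type (2 arrays) and lcn2 knockout cells (2 arrays), of the same strain, sex and age. The labels do not say whether replicates were separate mice or pools, so the spread between arrays may be technical.

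Neutrophils are short-lived white cells that kill microbes with proteins stored in granules. The granules are filled in turn while the cell matures in the marrow: primary granules at the promyelocyte stage, secondary granules at the myelocyte stage and tertiary granules later still. Mature cells are then held in the marrow by the receptor CXCR4 and leave it through CXCR2, and G-CSF, acting through CSF3R, drives their production.

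Each gene was represented by the probe set with the highest mean signal over the 3 arrays among those that name that gene alone. Its percentile is the share of all 35556 probe sets of the array that lie at or below it. In all, 19938 genes were ranked. Probe sets differ in how well they bind their target, so the order is that of signals and not of RNA copies per cell. No groups were compared, so no p-value is given.

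The 3 arrays did not carry the same order. On the log2 scale the middle of the distribution was narrow on replicates 1 and 2, with an interquartile range of 1.68 each, and wide on replicate 3, at 2.51. Spearman's correlation across probe sets was 0.976 between replicates 1 and 2, and 0.756 and 0.766 between each of these and replicate 3. These are correlations across probe sets of the same design, which are not independent replicates. Unstimulated knockout replicate 3 and the 4 fMLP arrays had interquartile ranges of 2.47 to 2.59, close to that of wild type replicate 3, while unstimulated knockout replicates 1 and 2 had 1.67 and 1.64. Every result below is therefore given array by array. The labelled sex was also checked. Xist, made from the inactive X of female cells, lay at percentiles 31.7, 34.0 and 26.1 on replicates 1, 2 and 3, which goes against the label on all 3 arrays. The Y-linked gene Eif2s3y lay at 17.2 and 21.3 on replicates 1 and 2 and at 81.5 on replicate 3. The Y-linked genes Kdm5d (24.7, 27.9 and 46.0) and Uty (17.0, 16.3 and 51.1) were also highest on replicate 3. Both stayed below the median of all ranked genes on each array, which was 53.0, 52.2 and 54.8. Srsy, also of the Y chromosome, went the other way, at 97.2, 97.4 and 17.4.

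The neutrophil marker genes lay at or near the top of the order. They were chosen with earlier results of these data known, so their place is no separate check of the label. Of 6 neutrophil markers, 5 lay in the top 1% on all 3 arrays, against 0.186% of all ranked genes (37 of 19938). S100a8 and S100a9 encode the 2 chains of calprotectin, the metal-binding protein that fills the neutrophil cytosol. S100a8 had log2 signals of 13.71, 13.55 and 13.83 on replicates 1, 2 and 3, and S100a9 had 13.52, 13.60 and 13.78. Ngp, the neutrophilic granule protein, had 13.70, 13.65 and 13.84. For these 3 genes the arrays differed little. Camp, the precursor of the antimicrobial peptide cathelicidin, had 13.09, 12.80 and 13.82, and Ltf, the iron-binding lactoferrin, had 12.96, 12.68 and 13.92, both highest on replicate 3. Cxcr2, the chemokine receptor of mature neutrophils, had 11.55, 12.16 and 13.32. It lay at percentiles 97.9, 98.6 and 99.4, inside the top 1% on replicate 3 alone.

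The 37 genes in the top 1% on all 3 arrays were sorted into functional groups, which were drawn up once the genes were known. The largest, with 10 genes, was that of granule and secreted proteins. Lcn2, the secondary granule protein that binds bacterial iron carriers, had log2 signals of 13.88, 13.93 and 14.02 and percentiles of 99.90, 99.90 and 99.88. It was the highest of the granule genes on every array. Retnlg, which encodes a resistin-like secreted protein, had the next highest mean, at percentiles 99.88, 99.89 and 99.75, but lay below Mmp9, Lyz2, Ltf and Ngp on replicate 3. Lyz2 (lysozyme), Pglyrp1 (a peptidoglycan-binding protein), the matrix proteases Mmp8 and Mmp9, and Srgn, the proteoglycan core that packs granule contents, completed the group together with Ngp, Camp and Ltf. Its lowest value was 99.07, of Mmp9 on replicate 1. Mmp9, or gelatinase B, was also the gene of the 37 with the widest spread, at log2 signals of 12.46, 12.72 and 13.95.

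**Figure D1:**
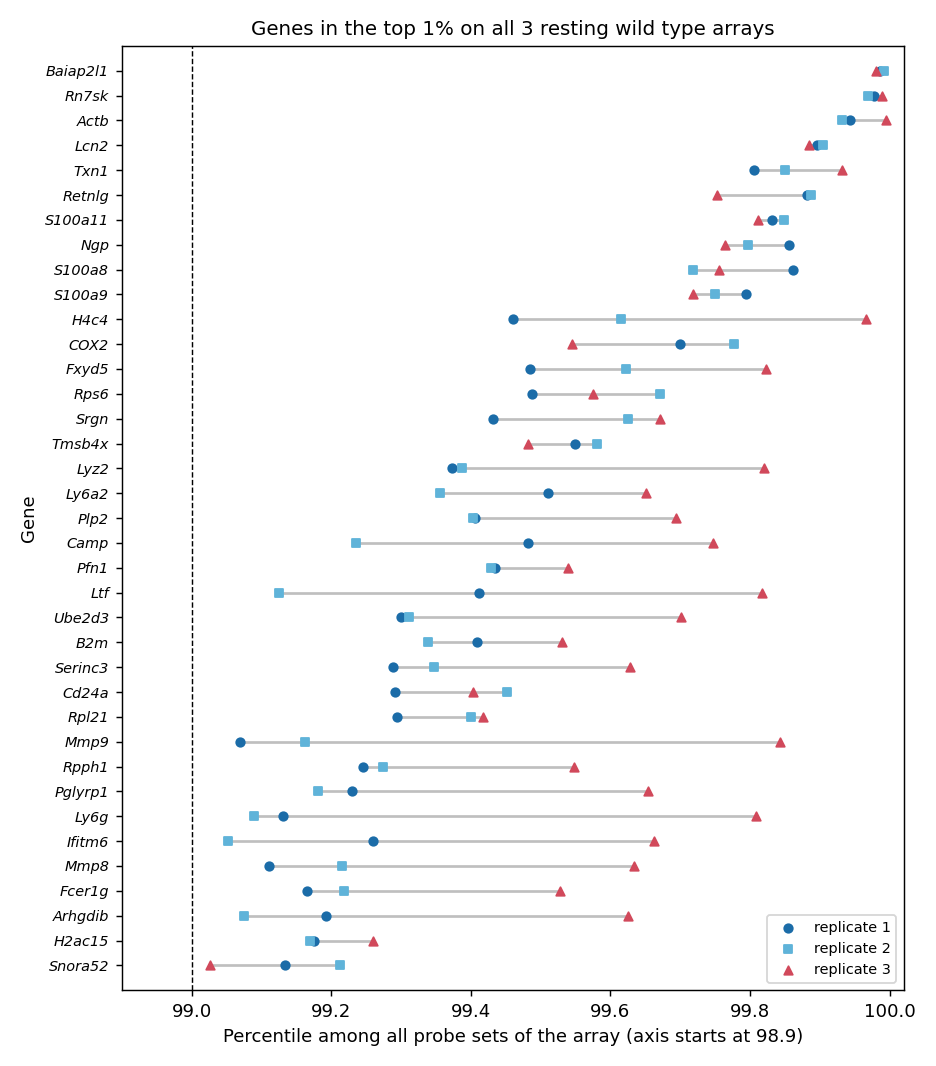
Percentile of each of the 37 genes in the top 1% on all 3 resting wild type arrays, with 1 symbol per array and a grey line from the lowest to the highest array; the dashed line marks percentile 99. Lcn2, S100a11, Ngp, S100a8 and S100a9 keep within a narrow band, while Mmp9 and Ly6g lie near the threshold on replicates 1 and 2 and at 99.84 and 99.81 on replicate 3.

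A second group held 8 membrane proteins. Among them were Ly6g, the surface antigen by which mouse neutrophils are commonly recognised (percentiles 99.13, 99.09 and 99.81), Cd24a, a glycosyl-anchored surface protein (99.29, 99.45 and 99.40), and Fcer1g, the signalling chain shared by Fc receptors (99.16, 99.22 and 99.53). Ifitm6, Fxyd5, Plp2, Serinc3 and Ly6a2 were the others. The S100 group had 3 members, with S100a11 at 99.83, 99.85 and 99.81 besides S100a8 and S100a9. Actin genes were also among the 37. Actb, cytoplasmic actin, had log2 signals of 14.15, 14.11 and 14.40, and it was accompanied by Tmsb4x, which holds actin monomers, and by Pfn1, which feeds them to filaments.

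A further 12 genes were 2 ribosomal protein genes, Rps6 and Rpl21, the mitochondrially encoded COX2, a subunit of cytochrome c oxidase, 5 genes of RNAs that lack a long poly(A) tail, and Txn1, Ube2d3, B2m and Baiap2l1. The 5 were Rn7sk, which restrains transcription elongation, Rpph1, the RNA of ribonuclease P, the small nucleolar RNA gene Snora52, and the histone genes H4c4 and H2ac15. Rn7sk had percentiles of 99.98, 99.97 and 99.99. H4c4, which encodes histone H4, stood at 99.46, 99.61 and 99.97. Txn1, the redox protein thioredoxin, had log2 signals of 13.56, 13.80 and 14.10.

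The probe sets of the highest entry, Baiap2l1, lay far apart. The gene encodes an adaptor protein of epithelial cells that bends membranes. Its chosen probe set lay at percentiles 99.99, 99.99 and 99.98, and a second at 99.42, 99.29 and 98.34. The third, the only one of the 3 that lists a RefSeq transcript of Baiap2l1, lay at 22.3, 24.002 and 22.7. COX2 and Ly6a2 were the other 2 of the 37 whose probe set listed no RefSeq transcript of the gene in the reference table.

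The order within the 37 was loose. Of the 36 neighbouring pairs, 35 had ranges over the 3 arrays that overlapped. The genes just inside the limit were Snora52 (lowest percentile 99.03), Ifitm6 (99.05) and Mmp9 (99.07). Those just outside were H4c14 (98.97), the ribosomal protein gene Rpl41 (98.945) and Grina (98.94). On single arrays the top 1% held 48, 50 and 93 genes (0.241%, 0.251% and 0.466% of those ranked), and 1064, 986 and 1842 genes lay above percentile 90 (5.34%, 4.95% and 9.24%). Replicates 1 and 2 shared 42, which was 87.5% and 84.0% of their lists. Replicates 1 and 3 shared 39, which was 81.2% of the list of replicate 1 and 41.9% of that of replicate 3. Most probe sets above percentile 99 name no single gene: on replicates 1, 2 and 3, 217, 198 and 117 of them name none and 76, 90 and 113 name several.

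The 37 were mostly still at the top on arrays that had no part in choosing them. On unstimulated knockout replicates 1, 2 and 3, 36, 26 and 36 of the 37 lay above percentile 99. Of all ranked genes, 47, 41 and 89 lay above it on these arrays. Lcn2 itself lay below on all 3, at percentiles 77.5, 50.3 and 51.8. The other genes below 99 on knockout replicate 2 lay at 98.2 or higher, with Ly6g (98.22) and Ltf (98.32) lowest. On the 2 fMLP wild type arrays 37 and 36 of the 37 lay above percentile 99, and on the 2 fMLP knockout arrays 36 and 34. Of all ranked genes, 98 and 106 lay above it on the fMLP wild type arrays and 93 and 82 on the fMLP knockout arrays.

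The letters of the promoters were read for those of the 37 that the promoter table holds, 28 genes, over 250 bases before to 50 bases after each listed start (RefSeq, GRCm38.p6). The motif TTGCNNAA resembles the site of the C/EBP transcription factors, the family of C/EBP epsilon, which drives secondary granule genes. On both strands it was found in 8 of the 28 promoters (28.6%), against 11.3% of the 15562 ranked genes with a promoter. The 8 genes were Lcn2, Ltf, Ngp, Mmp8, Ly6g, Retnlg, S100a9 and Pfn1. The motif TATAAA, the core of the TATA box, was found on both strands in 11 of the 28 (39.3%), against 13.6% of all. On the coding strand between 40 and 20 bases before the start it was found in 2 of the 28, S100a8 and H4c4 (7.14%, against 2.83%). Matches are described only, and a promoter without a match shows no more than that these letters are missing from this window. The stretches around matches in 5 granule genes and the TATAAA stretches of S100a8 and S100a9 are printed 5′ to 3′ along the gene's strand to show the motifs in the promoters of the genes that lead the order, with the matched letters in capitals.
Lcn2, chr2:32387928-32387975, minus strand: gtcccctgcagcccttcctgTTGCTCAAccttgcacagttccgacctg
Ltf, chr9:111019197-111019244, plus strand: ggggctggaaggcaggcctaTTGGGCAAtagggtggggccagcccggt
Ngp, chr9:110419650-110419697, plus strand: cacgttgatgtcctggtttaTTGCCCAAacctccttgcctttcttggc
Ngp, chr9:110419777-110419824, plus strand: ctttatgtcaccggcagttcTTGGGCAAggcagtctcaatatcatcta
Mmp8, chr9:7558390-7558437, plus strand: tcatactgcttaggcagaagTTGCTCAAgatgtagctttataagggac
Retnlg, chr16:48872358-48872389, plus strand: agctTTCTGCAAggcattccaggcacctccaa
S100a8, chr3:90669021-90669066, plus strand: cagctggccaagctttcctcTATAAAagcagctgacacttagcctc
S100a9, chr3:90695696-90695741, minus strand: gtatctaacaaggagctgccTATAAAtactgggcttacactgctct
Ngp had 2 matches of TTGCNNAA, beginning 138 and 11 bases before the start. In Lcn2 the match began 216 bases, in Ltf 75 bases and in Mmp8 19 bases before the start. In S100a8 the letters TATAAA began 30 bases before the start. In S100a9 they began at the listed start itself.

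The genes at the top were also short. The median gene span, from the start to the end of the gene with introns, was 4.82 kb for the 34 protein-coding genes among the 37 and 19.2 kb for all 18555 protein-coding genes ranked. Of the 34, 25 spanned under 10 kb, against 32.7% of all.

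The granule genes differed by the kind of granule. The median percentile on replicates 1, 2 and 3 was 78.7, 75.1 and 90.7 for primary, 98.6, 98.3 and 99.4 for secondary, and 92.8, 92.7 and 97.1 for tertiary granule genes. For all ranked genes it was 53.0, 52.2 and 54.8. On all 3 arrays the secondary list had the highest median and the primary list the lowest. Above percentile 90 on all 3 arrays lay 3 of 13 primary, 11 of 14 secondary and 5 of 9 tertiary granule genes, against 2.96% of all genes.

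Among the secondary granule genes, 7 of 14 were in the top 1% on all 3 arrays: Lcn2, Ngp, Lyz2, Camp, Ltf, Pglyrp1 and Mmp8. Cd177, a surface and granule protein, followed at percentiles 98.1, 97.4 and 99.1, and Hp (haptoglobin) at 96.2, 95.3 and 98.8. Chil3, a chitinase-like protein, had log2 signals of 10.14, 9.94 and 12.78, and Olfm4, an olfactomedin of a subset of neutrophils, had 10.00, 9.77 and 12.32. By percentile Chil3 lay at 92.5, 89.7 and 98.7 and Olfm4 at 91.2, 87.9 and 97.7, both highest on replicate 3. The gap in log2 signal is partly one of scale, since percentile 90 began at 9.88, 9.97 and 10.73. B4galt1, a galactosyltransferase, was the lowest of the list at 64.3, 61.1 and 92.5.

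Of the tertiary granule genes only Mmp9 reached the top 1% on all 3 arrays. Itgam, the alpha chain of the integrin Mac-1, lay at percentiles 95.9, 96.2 and 98.8, and Mmp25, a membrane-bound matrix protease, at 92.8, 92.3 and 97.1. Hpse, heparanase, was lowest at 41.5, 37.8 and 75.1.

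The primary granule genes Mpo (myeloperoxidase) and Elane (neutrophil elastase) were the highest of their list on each array. Mpo had log2 signals of 11.07, 11.20 and 12.61, at percentiles 96.9, 96.5 and 98.4. Elane had 10.79, 10.90 and 12.59, at 95.9, 95.6 and 98.3. Ctsg, cathepsin G, lay at 76.1, 76.1 and 95.8, and Prtn3, proteinase 3, at 79.4, 75.3 and 89.3. Man2b1, a lysosomal mannosidase, was the third of the list above percentile 90 on all 3 arrays (93.3, 93.1 and 96.9), and Ctsc, the protease that activates elastase and its relatives, had the lowest mean at 35.6, 28.3 and 84.8.

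Genes of late maturation stages lay above those of early stages. The median was 97.8, 98.4 and 99.04 for 19 late-stage genes and 83.2, 76.1 and 93.8 for 15 early-stage genes. Above percentile 90 on all 3 arrays lay 16 and 3 of these, against 2.96% of all genes. The 2 stage lists share members with the granule lists and are no separate evidence. Other members of the late list were Ifitm2, an interferon-induced membrane protein (98.82, 98.84 and 99.25), Btg1, which restrains cell division (97.5, 98.2 and 99.1), Ccl6, a chemokine (97.89, 98.43 and 98.88), and Il1b, the precursor of interleukin 1 beta (96.65, 97.97 and 98.25). The early list was led by Igsf6 (98.3, 98.1 and 99.1). Fcnb, a ficolin of immature neutrophils, lay at 84.4, 81.8 and 96.2, and Ms4a3, a membrane protein of granulocyte precursors, had the lowest mean at 58.4, 49.7 and 82.9.

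Cytosolic calcium-binding proteins and antiproteases were also high. Over the 15 ranked genes of S100 proteins, annexins, stefins and antiproteases the median was 93.5, 93.8 and 97.3. Of these, 9 lay above percentile 90 on all 3 arrays, against 2.96% of all genes. After the 3 S100 genes of the top 1% came Anxa1, the annexin that damps neutrophil recruitment (98.4, 97.3 and 99.3). Wfdc17, which encodes a small secreted protein, lay at 93.5, 95.9 and 99.6, and Slpi, an inhibitor of elastase, at 95.3, 94.9 and 95.0. S100a4 lay near the middle at 47.5, 40.2 and 49.9, and Stfa3, a stefin, had the lowest mean at 27.6, 34.9 and 63.8. Anxa3 lay at 65.8, 45.4 and 92.5, high on replicate 3 alone.

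**Figure D2:**
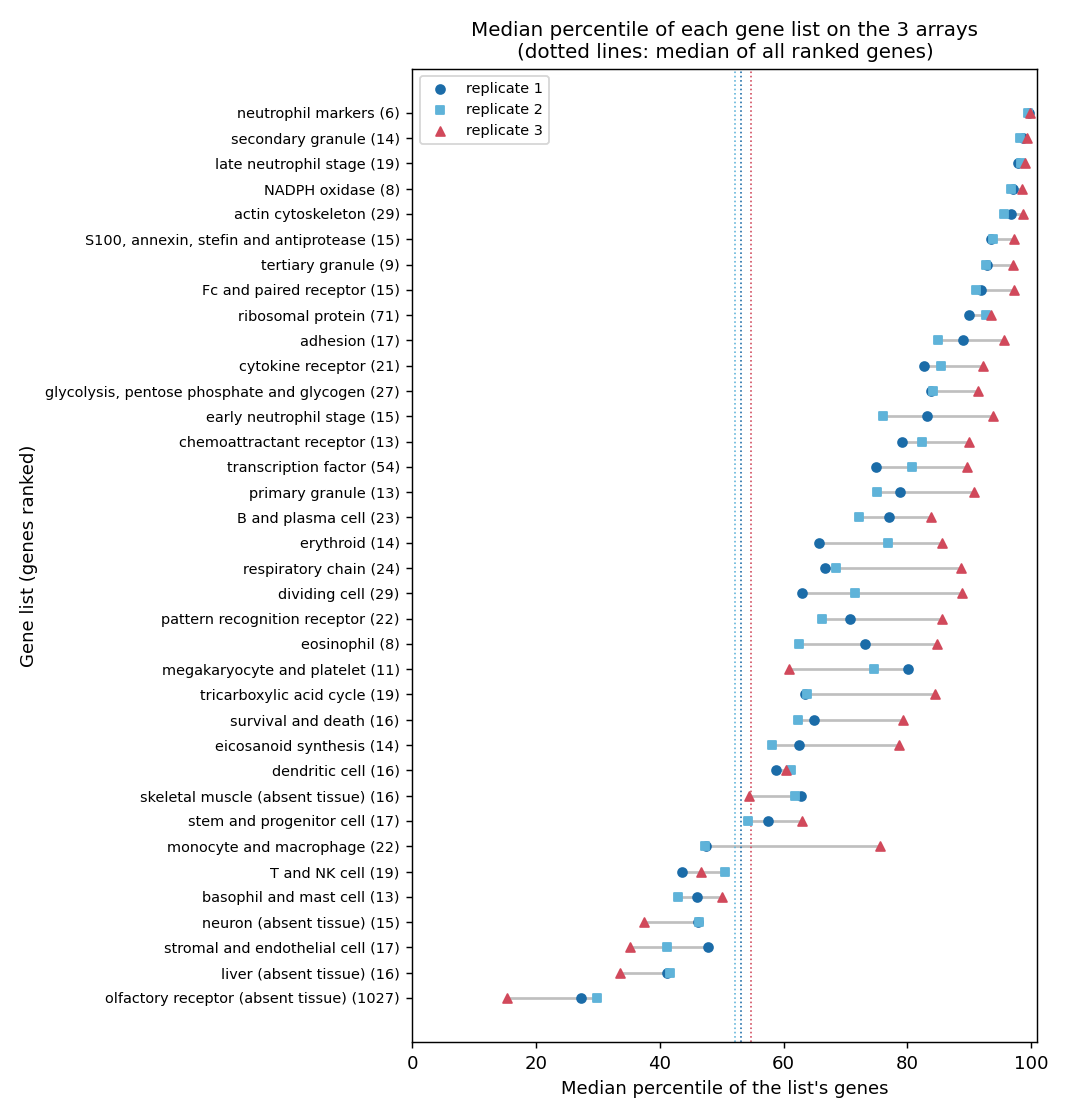
Median percentile of the ranked members of each gene list on each of the 3 arrays, with the number of genes in brackets, a grey line from the lowest to the highest array and dotted lines for the median of all ranked genes. Neutrophil markers, secondary granule, late-stage, NADPH oxidase and actin genes lie at the right edge, and the olfactory receptor genes lie lowest, at 15.4 on replicate 3.

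Receptors that steer neutrophil production and release were among the high ones. Csf3r, the receptor of G-CSF, had log2 signals of 11.54, 12.26 and 13.04, at percentiles 97.8, 98.7 and 99.04. It led the cytokine receptor list, followed by Csf2ra, a chain of the GM-CSF receptor (96.8, 96.3 and 97.1), Ifngr2 of the interferon gamma receptor (95.2, 96.2 and 98.05) and Csf2rb (94.4, 93.6 and 97.6). These 4 of 21 lay above percentile 90 on all 3 arrays, against 2.96% of all genes. Il6st and Il10ra, signalling chains of the IL-6 and IL-10 receptors, were lowest, with Il10ra at 39.7, 35.4 and 74.0. Il1r2, the decoy receptor of interleukin 1, differed between the arrays of like distribution, at 82.6 on replicate 1 and 93.0 on replicate 2.

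Of 13 chemoattractant receptor genes, 4 lay above percentile 90 on all 3 arrays, against 2.96% of all genes. Cxcr2 led, and Cxcr4, the receptor that retains neutrophils in the marrow, had log2 signals of 10.74, 10.87 and 12.14, at percentiles 95.7, 95.5 and 97.3. For both receptors replicate 3 was highest. C5ar1, the receptor of the complement fragment C5a, lay at 94.9, 93.7 and 96.3, and Ptafr, that of platelet-activating factor, at 94.2, 92.5 and 94.2. Cxcr1, the second receptor for CXCR2-type chemokines, lay at 74.2, 77.9 and 71.9, and C3ar1 had the lowest mean at 60.4, 49.6 and 44.6. Fpr1 and Fpr2, the formyl peptide receptors, were not ranked here.

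**Figure D3:**
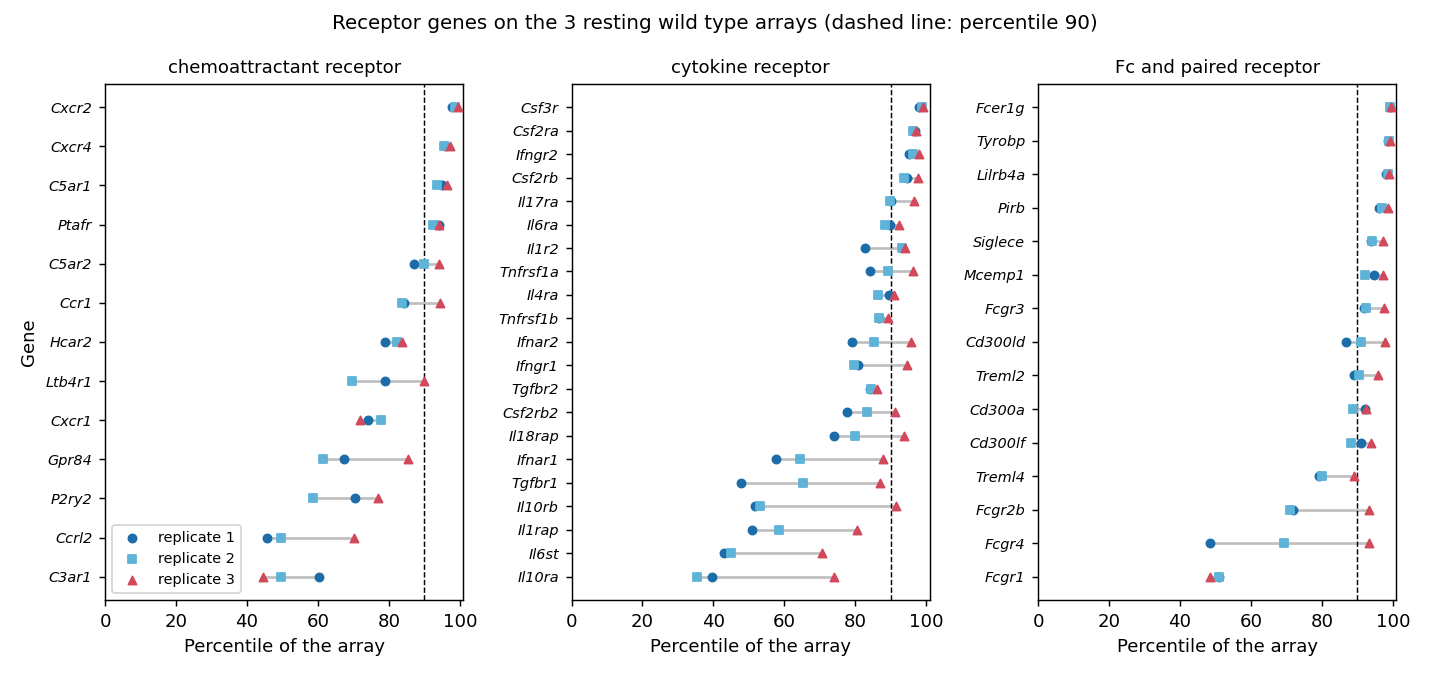
Percentile of each ranked chemoattractant, cytokine, and Fc or paired receptor gene on the 3 arrays, ordered by the mean, with a grey line from the lowest to the highest array and a dashed line at percentile 90. Cxcr2, Csf3r and Fcer1g lead their panels, and Fcgr4 spans 48.5 to 93.4 between replicates 1 and 3.

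Fc receptors and paired immune receptors had the highest median of the receptor lists, 91.9, 91.0 and 97.3. Above percentile 90 on all 3 arrays lay 7 of 15, against 2.96% of all genes. Fcer1g and Tyrobp, the adaptor chains through which many of the others signal, were on top, with Tyrobp at 98.7, 98.8 and 99.3. The inhibitory receptors Lilrb4a (98.1, 98.6 and 98.8) and Pirb (96.0, 96.8 and 98.6) came next. Fcgr3, a low-affinity IgG receptor, lay at 91.9, 92.3 and 97.4. Fcgr1, the high-affinity IgG receptor, had the lowest mean at 50.9, 51.1 and 48.5. Fcgr4 lay at 48.5, 69.4 and 93.4, so its place depended on the array.

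Pattern recognition receptors were more scattered, with a median of 70.7, 66.2 and 85.6. Of 22, 4 lay above percentile 90 on all 3 arrays, against 2.96% of all genes. The 4 were Trem3 (98.5, 98.2 and 99.52) and Trem1 (94.5, 96.9 and 94.5), which amplify inflammatory signals, Clec12a, an inhibitory lectin (93.5, 92.8 and 98.01), and Clec7a, the beta-glucan receptor (90.6, 93.0 and 95.4). Tlr2, a receptor for bacterial lipoproteins, lay at 84.1, 86.6 and 88.6. Tlr4, the receptor for lipopolysaccharide, had log2 signals of 7.33, 7.64 and 9.64, at 23.4, 29.7 and 79.3, and its co-receptor Cd14 lay at 56.2, 56.3 and 61.2. Tlr3, which senses double-stranded RNA, was lowest at 17.2, 15.02 and 14.5.

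Adhesion genes had a median of 89.0, 84.9 and 95.6. Of 17, 7 lay above percentile 90 on all 3 arrays, against 2.96% of all genes. Itgb2, the beta chain of the leukocyte integrins, lay at 97.1, 97.1 and 99.2, and Selplg, the selectin ligand PSGL-1, at 97.6, 97.6 and 98.98. Ceacam1, an adhesion molecule that also inhibits signalling, lay at 97.6, 96.8 and 99.1, and Sirpa, the receptor of the do-not-eat signal CD47, at 96.9, 96.3 and 98.6. Pecam1, used in crossing the vessel wall, had the lowest mean at 50.9, 58.1 and 70.8.

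Among 8 genes of the NADPH oxidase, the enzyme of the respiratory burst, the median was 97.1, 96.7 and 98.6. Of the 8, 5 were above percentile 90 on all 3 arrays, against 2.96% of all genes. Cybb, the catalytic subunit, had log2 signals of 12.17, 11.91 and 13.66, and its partner Cyba had 11.26, 11.31 and 13.18. Hvcn1, the proton channel that balances the burst, was lowest at 66.8, 75.3 and 93.8. Actin genes were as high, with a median of 96.8, 95.6 and 98.7 and 23 of 29 above percentile 90 on all 3 arrays. Lcp1, the bundling protein L-plastin, lay at 98.7, 98.7 and 99.6. Myl12a, a regulatory light chain of myosin, had the lowest mean of the list at 70.8, 69.4 and 88.6.

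The place of transcription factor genes depended on the array. Their median was 74.9, 80.7 and 89.6, and 3 of 54 lay above percentile 90 on all 3 arrays (5.56%, against 2.96% of all genes). On replicates 1, 2 and 3 taken singly it was 3, 6 and 24 of the 54. Spi1, which encodes the myeloid master factor PU.1, had log2 signals of 10.63, 11.07 and 12.83, at percentiles 95.2, 96.1 and 98.8. Mxd1, a partner of MAX that opposes MYC, had 11.08, 11.25 and 12.57, at 96.9, 96.7 and 98.3. Cebpe, the factor of secondary granule genes, had 10.40, 10.50 and 11.81, at 94.1, 93.7 and 96.1. For these 3 genes every array gave a place in the top 10%.

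Max, the partner of both MYC and MXD1 (89.4, 91.7 and 97.1), Klf6 (88.1, 90.6 and 95.5) and Stat3, which carries the signal of the G-CSF receptor (87.9, 90.7 and 95.6), lay just under the limit on replicate 1.

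Cebpa, Gfi1 and Myb, factors of the earlier granulocyte stages, lay lower than the genes above. Myb, at 83.9, 80.1 and 93.8, was the highest of them. Cebpa, needed for the first step into the granulocyte line, lay at 74.4, 69.5 and 73.8, and Gfi1, a repressor that acts at the promyelocyte stage, at 69.4, 65.2 and 73.4. Both kept about the same place on all 3 arrays. Myc lay at 43.0, 53.5 and 80.0, so its place depended on the array. Maf had the lowest mean percentile of the list, at 51.9, 38.1 and 56.4. The largest difference between replicate 3 and the other 2 was that of Etv6, at 47.1, 51.5 and 86.7.

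Metabolic genes were led by glycolysis and its branches. The median was 83.8, 84.1 and 91.4 for 27 genes of glycolysis, the pentose phosphate pathway and glycogen, 63.5, 63.7 and 84.5 for 19 genes of the tricarboxylic acid cycle, and 66.7, 68.5 and 88.7 for 24 nuclear genes of the respiratory chain. Above percentile 90 on all 3 arrays lay 10, 2 and 4 of these, against 2.96% of all genes. On each array the glycolysis list was the highest of the 3. Hk1, hexokinase 1, had log2 signals of 11.99, 12.11 and 12.44, at percentiles 98.6, 98.5 and 98.02. Hk3, the hexokinase of myeloid cells, lay at 86.1, 88.2 and 93.8, and Hk2 at 65.4, 65.1 and 83.8.

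Pgd, an enzyme of the pentose phosphate pathway that makes NADPH, lay at 97.95, 97.1 and 99.2, the highest mean of the list after Hk1. Pkm (pyruvate kinase) lay at 97.1, 96.7 and 97.5, Slc2a3 (the glucose carrier GLUT3) at 95.2, 95.6 and 98.6, and Pygl (glycogen phosphorylase) at 94.9, 94.4 and 98.5. Pfkp, a form of phosphofructokinase, had the lowest mean at 33.2, 41.0 and 70.2. Gbe1, the glycogen branching enzyme, lay at 30.5, 31.3 and 88.3, so its place depended on the array. In the respiratory chain Cox6c led at 97.1, 96.9 and 99.2, and in the cycle Mdh2, malate dehydrogenase, at 92.4, 93.7 and 97.3. Dld, a subunit shared by pyruvate and oxoglutarate dehydrogenases, had the lowest mean of the cycle at 22.5, 26.5 and 75.4.

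In eicosanoid synthesis, 3 of 14 genes lay above percentile 90 on all 3 arrays, against 2.96% of all genes. Alox5ap, which presents arachidonic acid to 5-lipoxygenase, lay at 98.4, 98.3 and 99.4, and Alox5, the 5-lipoxygenase itself, at 96.5, 96.6 and 98.2. Ptgs2, the inducible cyclooxygenase, had log2 signals of 10.28, 11.11 and 11.56. Ltc4s, the enzyme of leukotriene C4, lay at 61.6, 46.4 and 53.5. Of 16 survival and death genes 1 (6.25%) lay above percentile 90 on all 3 arrays. It was Mcl1, which delays neutrophil death, at 93.2, 92.6 and 96.9. Bcl2, which protects lymphocytes above all, lay at 85.7, 82.3 and 79.9. Xiap, an inhibitor of caspases, lay at 27.4, 31.0 and 82.5, high on replicate 3 alone.

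Ribosomal protein genes had a median of 89.999, 92.7 and 93.5 over the 71 symbols that start with Rpl or Rps. Of the 71, 31 lay above percentile 90 on all 3 arrays, against 2.96% of all genes. That list also takes in kinases and pseudogenes with the same start, such as Rps6ka6 at 7.46, 6.90 and 8.07. Without those, 54 genes had medians of 94.1, 94.0 and 95.2.

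To see how high a gene that these cells should not express could lie, 47 genes of liver, skeletal muscle and neurons were ranked in the same way. The highest of them on replicates 1, 2 and 3 lay at 86.5, 86.2 and 73.2. On replicates 1 and 2 this was Tnnt3 and on replicate 3 Acta1, both muscle genes. Olfactory receptor genes, of which 1027 were ranked, had a median of 27.2, 29.9 and 15.4, but single ones reached 98.5, 98.4 and 86.6. A place between the middle and about the 86th percentile on replicates 1 and 2 was therefore also reached by genes of absent tissues. Of all ranked genes, 6.18% lay above every one of the 47 on all 3 arrays. So did 2 of the 1027 olfactory receptor genes (0.195%), Olfr1174 and Olfr91. Passing this level therefore does not by itself show that a gene is expressed.

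The lists of other marrow cells were read against that level, as a description only. Because these are bulk samples, fewer cells of a type and less RNA per cell cannot be told apart. Of the 10 lists of other marrow cells, red cell genes gave the largest share above all 47 absent-tissue genes on all 3 arrays. It was 3 of 14 (21.4%), with dendritic cell (18.8%) and B cell genes (17.4%) close behind. The monocyte, stromal and basophil lists, with 1 gene each, gave 4.55%, 5.88% and 7.69%, near the 6.18% of all ranked genes. The eosinophil list gave 12.5%, also from 1 gene. Car1, the carbonic anhydrase of red cell precursors, had log2 signals of 11.59, 12.60 and 12.81, at percentiles 97.9, 99.1 and 98.7. Slc4a1, the anion exchanger of the red cell membrane, had 10.27, 11.30 and 11.97, and Ermap lay at 91.5, 91.7 and 90.4. Alas2, the red cell enzyme of haem synthesis, lay at 64.9, 80.8 and 88.7, lowest on replicate 1 as Car1 and Slc4a1 were. The adult haemoglobin genes were not ranked here.

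B cell genes gave 4 of 23 above that level on all 3 arrays. They were Cd79b (94.0, 92.9 and 95.4) and Cd79a (89.9, 88.4 and 92.8), the signalling chains of the B cell receptor, Igll1, a surrogate light chain of its precursor form (89.1, 89.4 and 88.8), and Cd37 (95.9, 94.8 and 97.1), which other white cells make too. Pax5, the factor that defines B cells, lay at 80.6, 77.9 and 83.8. Jchain, the joining chain of plasma cell antibodies, had log2 signals of 8.21, 8.02 and 11.38, at 45.2, 39.7 and 94.2, so it was high on replicate 3 alone.

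**Figure D4:**
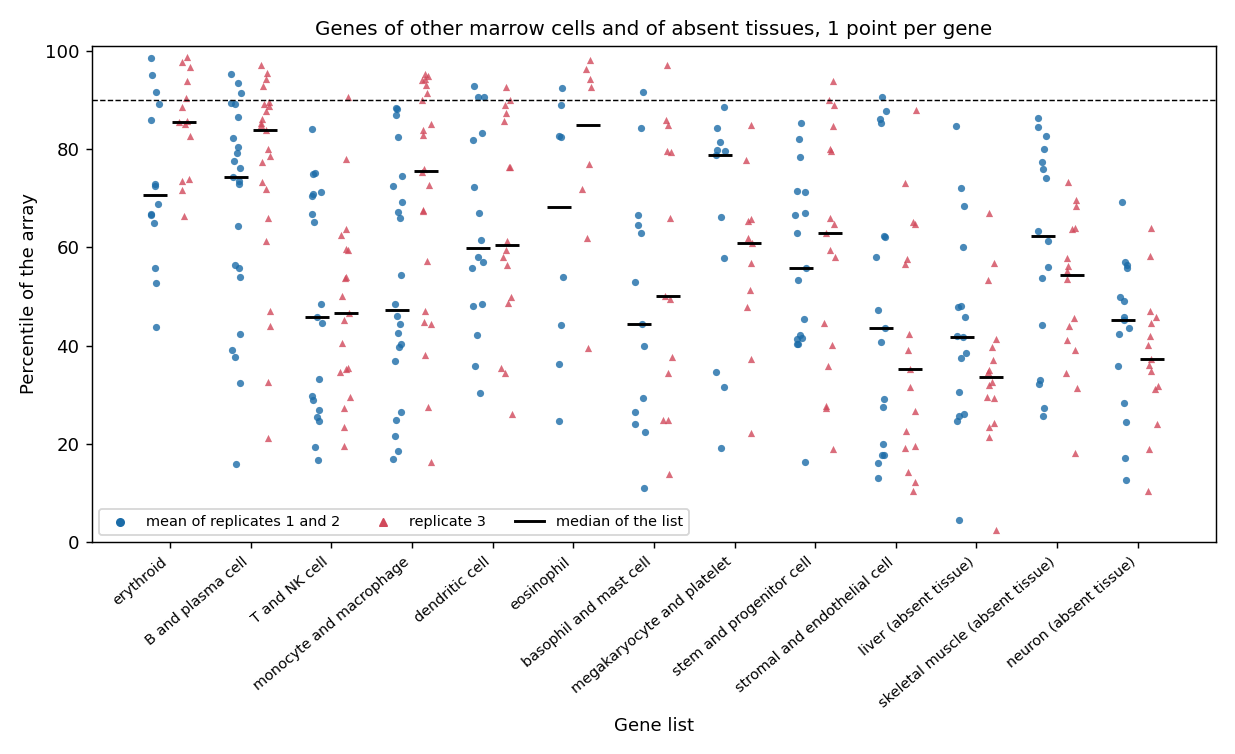
Percentile of each gene of 10 lists of other marrow cells and 3 lists of absent tissues, 1 point per gene, as the mean of replicates 1 and 2 (circles) and on replicate 3 (triangles), with a bar at the list's median and a dashed line at percentile 90. On replicate 3 the highest gene of each list of other marrow cells lies above percentile 90, except for megakaryocytes (84.9) and stroma (88.0). The monocyte and T and NK cell lists have medians of 75.6 and 46.7 there.

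Monocyte and macrophage genes gave 1 of 22 (4.55%) above that level on all 3 arrays, Cd68, a lysosomal protein that neutrophils also make (87.6, 89.3 and 93.1). On replicate 3 alone 12 of 22 lay above it, where 5659 of all 19938 genes did, and the median of the list was 47.5, 47.2 and 75.6. Ms4a6c, a membrane protein of monocytes, had log2 signals of 7.84, 7.05 and 11.34, at percentiles 34.3, 18.6 and 94.0. Ccr2, the receptor that brings monocytes out of the marrow, had 7.27, 7.54 and 10.06, at 22.5, 27.4 and 83.9. The macrophage complement genes C1qa (45.0, 47.0 and 47.0) and C1qc (50.02, 47.1 and 44.7) stayed near the middle on all 3 arrays. Their partner C1qb lay higher and was lowest on replicate 3, at 85.7, 79.1 and 67.7. Cx3cr1 of the same list was also lowest on replicate 3, at 91.3, 85.0 and 72.7.

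Eosinophil genes gave 1 of 8 on all 3 arrays and 5 on replicate 3, where 5659 of all 19938 genes passed. Ear6, a ribonuclease of eosinophil granules, had log2 signals of 10.72, 9.89 and 12.49, at percentiles 95.6, 89.2 and 98.2, and Prg2, the major basic protein, lay at 92.7, 85.2 and 96.3. Epx, eosinophil peroxidase, had 8.68, 8.23 and 11.11. For all 3 genes replicate 2 was lowest and replicate 3 highest. Siglecf of the same list was lowest on replicate 3, at 84.7, 80.2 and 77.0. Among 13 basophil and mast cell genes, Hdc, the histamine-forming enzyme, lay at 89.4, 93.9 and 97.1, but neutrophils also make it, and the other 12 did not pass the level on all 3 arrays. Mcpt8, the basophil protease, lay at 46.0, 42.9 and 85.0.

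T and NK cell genes gave 0 of 19 above that level on all 3 arrays. On replicate 3, where 5659 of all 19938 genes passed, it was 2, Nkg7 (84.0, 84.3 and 90.7) and Il7r. Nkg7 is also a member of the primary granule and early-stage lists used here. Cd3e of the T cell receptor lay at 69.5, 71.4 and 63.7, and Ncr1, an NK cell receptor, at 19.6, 19.2 and 29.5. The median of the list, 43.6, 50.5 and 46.7, was below that of all genes on each array. Megakaryocyte and platelet genes gave 0 of 11 and stem and progenitor genes 0 of 17. The median of the megakaryocyte and platelet list, 80.1, 74.7 and 60.8, was nonetheless above that of all genes on each array. Its members were scattered. Treml1 lay at 89.5, 87.6 and 61.9 and Gp9 at 87.8, 80.8 and 77.8. Pf4 and Ppbp, abundant platelet chemokines, lay at 28.7, 40.6 and 37.3 and at 34.1, 28.9 and 22.2. Of 17 stromal and endothelial genes only Acta2, smooth muscle actin, passed (88.2, 87.4 and 88.0). Col1a1, a collagen chain, lay at 91.4, 89.8 and 73.1, short of it on replicate 3. Myb, a factor of progenitors and of neutrophil precursors, lay at 83.9, 80.1 and 93.8.

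Dendritic cell genes gave 3 of 16 on all 3 arrays: Cd74, the MHC class II chaperone (91.2, 90.2 and 92.7), H2-Eb1, a class II chain (95.0, 90.6 and 85.8), and Bst2. B cells carry Cd74 and H2-Eb1 too, and Siglech and Zbtb46, which mark dendritic cells more narrowly, lay at 58.7, 55.3 and 61.4 and at 49.5, 46.5 and 49.9. Genes of dividing cells, which in marrow include neutrophil precursors, gave 5 of 29: Pcna, Ccnb2, Ube2c, Ccna2 and Mki67. Pcna, the sliding clamp of DNA replication, lay at 94.6, 96.2 and 97.9, and Mki67, a protein of dividing nuclei, at 88.4, 93.8 and 97.4. Birc5 lay at 34.5, 45.5 and 75.2.

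Few genes crossed both percentile 90 and the middle between replicates 1 and 2 and replicate 3. Genes that moved as far without meeting both limits, such as Gbe1 (30.5, 31.3 and 88.3), are not counted. Above percentile 90 on replicate 3 and below the middle on replicates 1 and 2 lay 35 genes, of 1842 above 90 on replicate 3. They included Ms4a6c, Jchain, the immunoglobulin gene Igkv10-96, Tlr8, an endosomal RNA sensor, and the lysosomal enzymes Asah1 (27.9, 36.0 and 93.8) and Lipa (36.2, 35.9 and 90.9). In the other direction lay 5, of 861 above 90 on both replicates 1 and 2. These were Mir297b, Olfr149, Srsy, Vmn1r193 and Vmn2r-ps104. These genes were picked after their values were seen. The range over the 3 arrays had a median of 11.6 percentile points for all ranked genes, 2.69 for the 591 genes above percentile 90 on all 3, and 0.233 for the 37 at the top. A small range is built into the last 2 numbers, since those genes were chosen by a floor on every array.

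**Figure D5:**
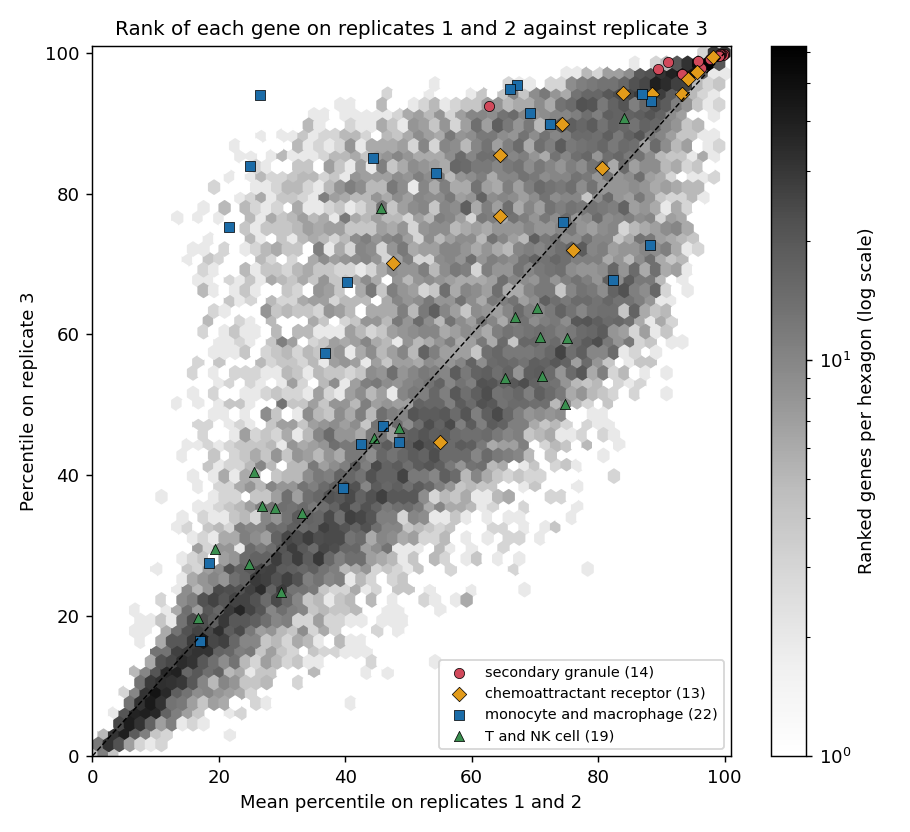
Mean percentile on replicates 1 and 2 against the percentile on replicate 3 for all 19938 ranked genes (grey hexagons, darker with more genes on a log scale), with genes of 4 lists as coloured symbols and a dashed line of equal places. Secondary granule genes gather in the upper right corner, while several monocyte genes, such as Ms4a6c and Ccr2, lie far above the line.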

How the data were processed

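RNA was hybridised to Affymetrix arrays, 100 ng of total RNA per sample by the labels' protocols. The authors deposited RMA signals made in Affymetrix Expression Console, per the submitters' processing notes, taken here as log2 values from their range; versions, log base and whether all arrays were processed in 1 run are not given in the sources used here. RMA subtracts background, normalizes between the arrays of a run and summarises probes, but the arrays here differ in their distributions. Of 35556 probe sets, 21789 name 1 gene, 1621 several and 12146 none. Within-array percentiles (100 times the average rank over the number of probe sets) depend on neither log base nor scaling. They were computed with pandas 2.3.3 and were checked on simulated arrays, where 200 of 200 planted genes were recovered. The planted genes were set above all others, and the simulated arrays shared the same distribution. That check therefore covers the computation and not how reliable the order is. Precision is limited by the number of arrays, 3. Members and gene lists (37, of which 2 by symbol pattern) were chosen with earlier results of these data known. Of 634 listed symbols, 61 have no probe set that names them alone here and were not ranked. Named are Lcn2, the markers, the 30 highest genes, those next to the limit and, per list, the 8 highest and 4 lowest members, all members of lists of up to 18, members in the top 1% and the member that differs most on replicate 3. A few further genes were named after their values were seen, and 1 of the 37 is not described here. Alternatives were other probe set rules, other reference sets for percentiles, other limits, each array left out and replicate 3 alone.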

Additional observations from a re-analysis of the deposited data

How the results depend on the processing

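The count of genes in the top 1% on all 3 arrays, 37, depends on what percentiles are taken over: it was 106 among the probe sets that name 1 gene and 130 with 1 probe set per gene; most probe sets above percentile 99 on replicates 1 and 2 name no gene. It was 11 for the top 0.5%, 79 for the top 2% and 93 on replicate 3 alone. Leaving out an array gave 39 to 42, the mean over each gene's probe sets 34, and leaving out probe sets without a RefSeq transcript of their gene, an alternative chosen after seeing the data, also 34. Of the 37 lists, 8 had a median above percentile 90 on every array, 8 to 9 with an array left out and 14 on replicate 3 alone. No paired analysis was possible because the ranking compares no groups.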
